A study of Caenorhabditis elegans with 6 samples.

Results

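The comt genes of the nematode Caenorhabditis elegans are 5 genes, comt-1 to comt-5 of a methyltransferase family. All 5 were found by name among the 41573 gene names of each count table. They were followed in whole L3 larvae of the strains hs::lin-29 and hs::control, with 3 libraries per strain. They were chosen because 2 of the 5, comt-1 and comt-2, passed the test for a rise in hs::lin-29, so their difference between the strains is given below as a description, without a p-value.

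Both strains were grown at 20 °C on E. coli, heat-shocked at 37 °C for 30 min when they had fed for 28 h, and collected 1 h later. The heat shock was meant to force early expression of lin-29 in hs::lin-29. All 6 libraries came from heat-shocked larvae, so the effect of the heat shock itself was not measured. The sources used here name neither the heat-shock promoter, nor the construct carried by hs::control, nor the number of independent lines. The zinc finger transcription factor LIN-29 ends the heterochronic pathway, the timer of the larval-to-adult switch. The replicates are called trials in the labels, which do not say whether they were separate cultures, so the spread between them may be technical.

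A methyltransferase of this kind moves a methyl group from S-adenosylmethionine to a hydroxyl group of a small molecule, such as the ring of dopamine. In C. elegans dopamine is made by a small set of neurons and slows movement on food, and comt-4 has been linked to dopamine-dependent locomotion. Membership of the family does not show which substrate each of the 5 worm enzymes methylates.

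The libraries held 14553652 to 17303509 counts assigned to genes, and levels are given as CPM, counts relative to the library total scaled with TMM factors. The hs::control libraries showed lin-29 itself at 49.8, 43.8 and 45.8 CPM, and the hs::lin-29 libraries at 131, 517 and 339 CPM. Between the strains 6.60% of the 13045 genes tested had a Benjamini-Hochberg adjusted p under 0.05 (edgeR, quasi-likelihood), with 321 of them higher in hs::lin-29 (2.46%) and 540 lower (4.14%). Leaving out replicate 2 or 3 of hs::control took the higher genes to 162 or 135 and the lower genes to 328 or 324. Leaving out replicate 3 of hs::lin-29 gave 210 higher and 337 lower, and leaving out its replicate 2 gave 352 lower. The strains did not overlap in 23.2% of the tested genes, and in 11.3% every hs::lin-29 library was the higher. hs::control replicate 1 stood apart from the other libraries on the second principal component, at 45.7 against -21.4 to 12.4. Markers of every tissue listed were detected in these whole-body samples, with summed levels of 9633 to 10656 CPM for 4 muscle genes, 3845 to 6200 CPM for 5 skin genes, 1563 to 2021 CPM for 5 intestine genes, 2078 to 2315 CPM for 3 pharynx genes, 732 to 886 CPM for 5 neuronal genes and 266 to 335 CPM for 5 germline genes. Some defining markers (elt-1, elt-3, elt-7, unc-15, pha-4, unc-119, unc-31, egl-3, pgl-1 and pgl-3) are listed at 0 in every library, and such a 0 is not read as absence.

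The 5 genes differed widely in level. Per kilobase of annotated exon, comt-3 was the most abundant in hs::control, at 42.9 ± 6.29 CPM per kilobase (SD, n = 3). It was followed by comt-4 at 19 ± 12.9, comt-5 at 6.55 ± 0.909, comt-1 at 2.66 ± 0.466 and comt-2 at 0.251 ± 0.0672 CPM per kilobase. The order of the means was the same in hs::lin-29, at 36.5 ± 4.03 for comt-3, 18.5 ± 10.2 for comt-4, 5.22 ± 1.28 for comt-5, 5.02 ± 0.424 for comt-1 and 1.24 ± 0.414 CPM per kilobase for comt-2. Some neighbours in this order were not separated. In hs::control comt-4 ranged from 5.59 to 31.3 CPM per kilobase and comt-5 from 5.83 to 7.57, so the ranges overlapped, and in hs::control replicate 1 comt-5 was above comt-4. In hs::lin-29 the libraries of comt-1 (4.54 to 5.34 CPM per kilobase) lay within the range of comt-5 (4.30 to 6.69). Without division by length comt-1 ranked 3 and comt-5 ranked 4 in both strains, since the exons of comt-1 span 2049 bases against 753 to 896 bases in the other 4 genes.

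Over the whole family the summed level was 64.9, 82.8 and 66.4 CPM per kilobase in hs::control replicates 1 to 3 and 49.9, 71.8 and 77.8 in hs::lin-29 replicates 1 to 3. The strains overlapped. comt-3 made up 49.1% to 75.7% of this sum and comt-4 from 8.62% in hs::control replicate 1 to 37.8% in hs::control replicate 2. In hs::control comt-1 held 3.07% to 4.77% of it, against 6.67% to 9.10% in hs::lin-29, and comt-2 0.222% to 0.490% and 1.48% to 2.35%. In hs::control the chosen members comt-1 and comt-2 ranked 4 and 5 per kilobase, and without division by length comt-1 ranked 3. As they were chosen for a rise over hs::control, no relation between level and change is drawn from these ranks.

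**Figure D1:**
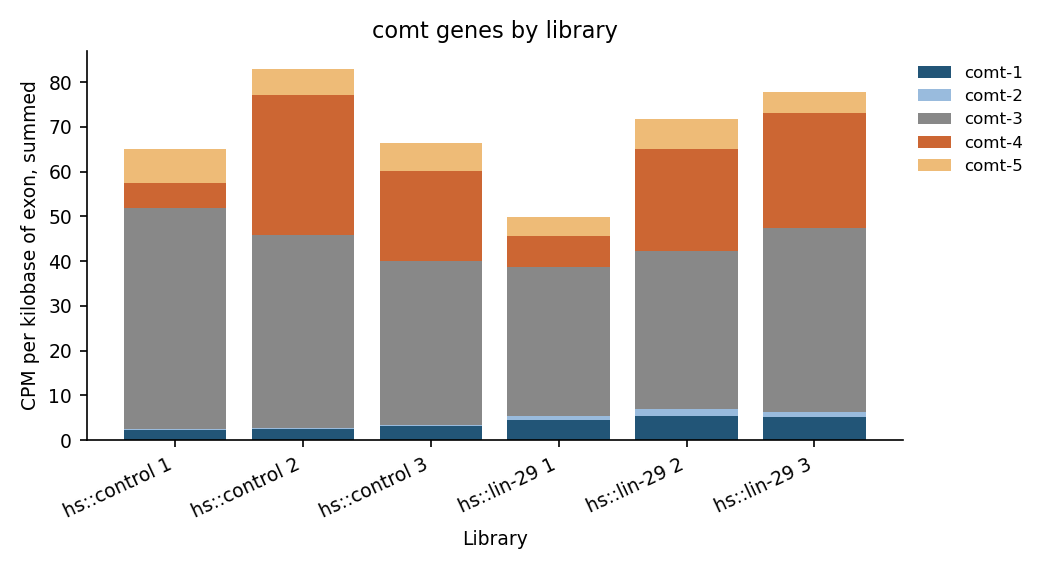
Summed level of the 5 comt genes in each library, in CPM per kilobase of annotated exon on a linear axis, each bar divided by gene. comt-3 is the largest part of every bar, and the part of comt-4 is small in replicate 1 of both strains, at 5.59 and 6.85 CPM per kilobase.

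In replicates 1, 2 and 3 of hs::control comt-1 measured 4.63, 5.21 and 6.50 CPM, and in those of hs::lin-29 9.30, 10.9 and 10.6 CPM. Every hs::lin-29 library was above every hs::control library, as in 11.3% of all tested genes, and the lowest value of each strain was that of replicate 1. The level was 1.88-fold higher in hs::lin-29 (log2 fold change 0.91, SE 0.17, n = 3 per strain). The summed counts behind it were 276 in hs::control and 482 in hs::lin-29.

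comt-2 was the rarest member. It had 4, 3 and 4 counts in hs::control replicates 1 to 3, or 0.285, 0.165 and 0.224 CPM. In hs::lin-29 it had 13, 21 and 17 counts, or 0.780, 1.51 and 1.03 CPM. Every hs::lin-29 library was the higher, as in 11.3% of all tested genes, and replicate 2 was the lowest hs::control library and the highest of hs::lin-29. The level was 4.84-fold higher in hs::lin-29 (log2 fold change 2.28, SE 0.47), from 51 counts against 11 over the 3 libraries of each strain. comt-2 reached the minimum count of the filter in the hs::lin-29 libraries alone, so a gene of this level could enter the test only by being high in one strain.

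The members chosen as rising depended on the libraries used. With replicate 2 of either strain left out, neither comt-1 nor comt-2 passed the threshold, and with replicate 3 of either strain left out, comt-2 did not. Their log2 fold changes stayed between 0.82 and 1.05 for comt-1 and between 2.00 and 2.46 for comt-2 as each library was left out. The threshold was set on the adjusted p and not on the size of the change. Of the 2 genes past it, comt-1 had the smaller log2 fold change, 0.91. Of the members outside it, comt-5 had the largest, at -0.33. All 5 passed the filter on low counts.

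**Figure D2:**
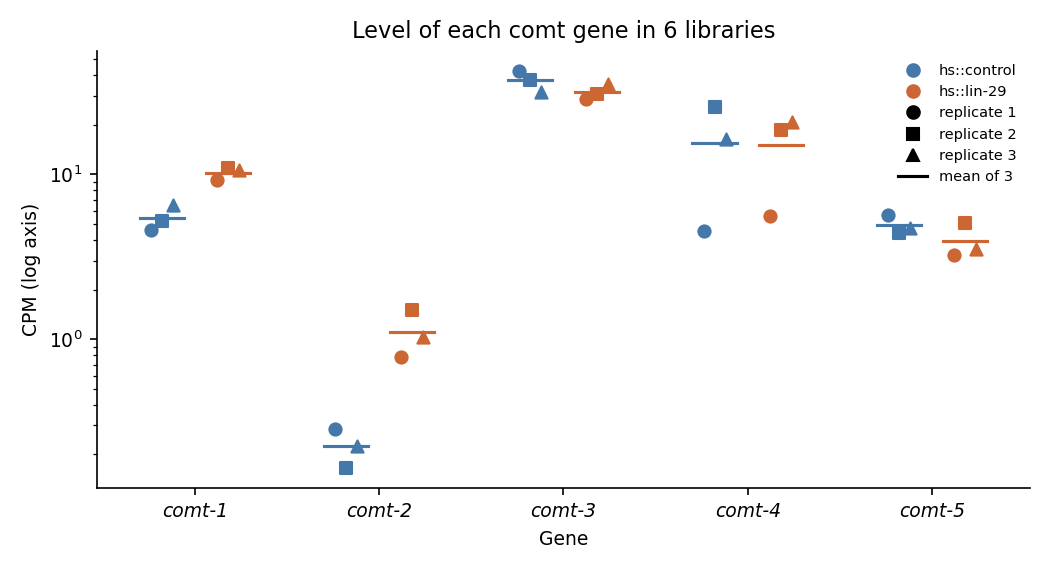
Level of each comt gene in CPM on a log axis, 1 point per library with the replicate number as its shape and a line at the mean of 3 libraries. The strains are apart for comt-1 and comt-2, which were chosen for their rise on this contrast, and overlap for comt-3, comt-4 and comt-5. Of all tested genes 23.2% had strains apart. Replicate 1 lies far below the other replicates of comt-4 in both strains.

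In replicates 1, 2 and 3 of hs::control comt-3 measured 42.7, 37.3 and 31.8 CPM, and in those of hs::lin-29 28.9, 30.6 and 35.6 CPM. The ranges of the strains overlapped, with the highest value in hs::control replicate 1 (log2 fold change -0.23, SE 0.13). Without both libraries numbered 1 the log2 fold change was -0.06. In the WBcel235 annotation comt-3 overlaps nhr-86, a nuclear receptor gene on the opposite strand. Whether counting used strand is unknown here, so reads of the overlap may have been assigned to either gene or to none.

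In replicates 1, 2 and 3 of hs::control comt-5 measured 5.70, 4.39 and 4.70 CPM, and in those of hs::lin-29 3.24, 5.04 and 3.52 CPM. The strains overlapped through hs::lin-29 replicate 2 (log2 fold change -0.33, SE 0.23). The counts per library ran from 54 to 84. comt-5 is the only member that overlaps no other annotated gene. comt-1 and comt-4 each overlap a noncoding RNA gene and comt-2 a pseudogene, all on the opposite strand. The limit on read assignment given for comt-3 applies to these members too.

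comt-4 differed far more between replicates than between strains. The hs::control replicates, in the order 1 to 3, held 4.56, 25.5 and 16.5 CPM of comt-4, from 64, 465 and 294 counts. Those of hs::lin-29 held 5.58, 18.6 and 20.9 CPM, from 93, 259 and 345 counts. Replicate 1 was the lowest library in both strains, with a highest level 5.59 times the lowest in hs::control and 3.75 times in hs::lin-29. The mean levels were 15.5 ± 10.5 and 15.1 ± 8.29 CPM (SD, n = 3), a log2 fold change of -0.06 with an SE of 0.58. Without both libraries numbered 1, a setting added after these values were seen, the log2 fold change was -0.09. Leaving out 1 library moved it to -0.48 (replicate 1 of hs::control), 0.48 (replicate 2 of hs::control) or 0.32 (replicate 1 of hs::lin-29), so no direction is given for this gene.

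The within-strain SD of log2 CPM was 1.16 for comt-4, against 0.19 for comt-1, 0.35 for comt-2, 0.19 for comt-3 and 0.27 for comt-5. Of all 13045 tested genes 139 (1.07%) had a larger within-strain SD than comt-4. Of the 3569 tested genes, comt-4 included, whose mean level was within 2-fold of that of comt-4, 3 did. The same count was 1841 of 3055 genes within 2-fold of the level of comt-1, 1107 of 3813 for comt-3, 1270 of 2647 for comt-5 and 1159 of 1602 for comt-2. Of the 2 libraries in which comt-4 was low, hs::control replicate 1 also stood apart over all genes, at 45.7 on the second principal component, while hs::lin-29 replicate 1 lay at -2.09, between the other 2 hs::lin-29 libraries. The part of this separation in the values of comt-4 was not tested. comt-1, the other gene lowest in both libraries numbered 1, was there at 4.63 and 9.30 CPM, while comt-3 and comt-5 had their highest level in hs::control replicate 1 and their lowest in hs::lin-29 replicate 1. RNA from the whole body does not tell fewer expressing cells from less RNA per cell.

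**Figure D3:**
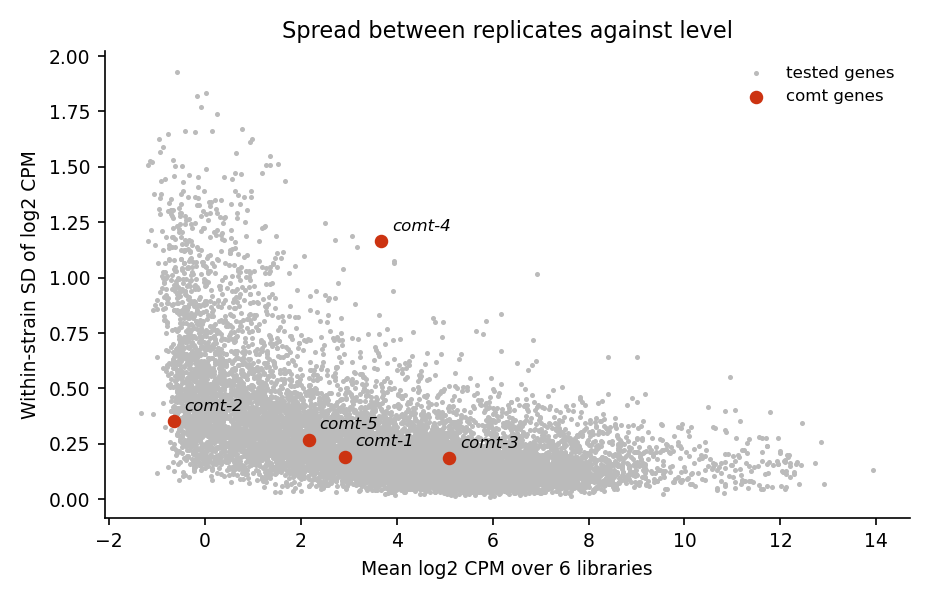
Within-strain SD of log2 CPM against mean log2 CPM over 6 libraries, with 1 grey point for each of 13045 tested genes and the comt genes in red. comt-4, at an SD of 1.16, lies above nearly all genes of its level, and the other 4 lie among the other genes.

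The genes whose levels over the 6 libraries most resembled those of each member were found by the root mean squared (RMS) difference in log2 CPM, each gene centred on its own mean. For comt-4 they were Y105C5B.18 (RMS difference 0.175), M151.7 (0.212) and F11A5.13 (0.236). All 3 had low levels and were lowest in both libraries numbered 1, with Y105C5B.18 at 0.142, 0.987 and 0.784 CPM in hs::control and 0.18, 0.648 and 0.972 CPM in hs::lin-29. In hs::control replicate 1 the level of Y105C5B.18 rests on 2 counts, and M151.7 had the same 0.142 CPM there. The likeness of both to comt-4 is thus loosely fixed. F11A5.13 had 0.356, 2.47 and 1.96 CPM in hs::control and 0.720, 1.58 and 2.00 CPM in hs::lin-29.

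For comt-5 the nearest genes were 21ur-12634, annotated as a piRNA gene (RMS difference 0.0578), metr-1, the methionine synthase gene of the methyl donor cycle (0.0635), and pho-1, an acid phosphatase gene of the intestine (0.0649). In the same order of libraries metr-1 measured 356, 248 and 271 CPM in hs::control, then 202, 302 and 227 CPM in hs::lin-29, which is the order of comt-5 in hs::control (replicate 1 highest, replicate 2 lowest) and in hs::lin-29 (replicate 2 highest, replicate 1 lowest). For comt-3 they were F22H10.3 (0.0448), pole-2, a DNA polymerase epsilon subunit gene (0.0483), and pot-2, a telomere-binding protein gene (0.0597).

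For the chosen pair the likeness includes the strain difference by which they were chosen. The nearest genes to comt-1 were clec-173, of the C-type lectin family (0.105), W01B6.3 (0.121) and F21A9.2 (0.126). clec-173 stood at 14.4 to 17.8 CPM in hs::control and 30.1 to 31.3 CPM in hs::lin-29. Those nearest to comt-2 were clec-232, of the same family (0.181), T26C12.2 (0.201) and str-187, a chemoreceptor family gene (0.218). str-187 is as rare as comt-2, at 0.224 to 0.356 CPM in hs::control and 1.08 to 1.58 CPM in hs::lin-29. These are descriptions over 6 libraries, chosen as the nearest of all tested genes.

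**Figure D4:**
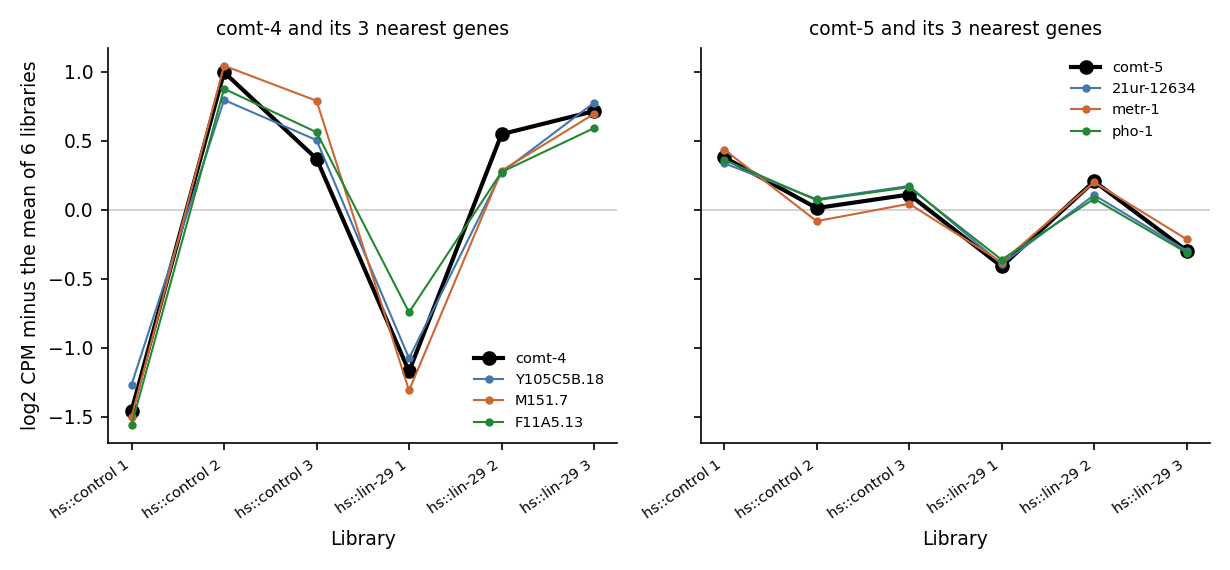
log2 CPM minus the mean of the 6 libraries, by library, for comt-4 (left) and comt-5 (right) in black with the 3 genes of smallest RMS difference in colour. comt-4 and its nearest genes are lowest in replicate 1 of both strains, while comt-5 and its nearest genes are highest in hs::control replicate 1 and lowest in hs::lin-29 replicate 1.

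In the WBcel235 annotation comt-4, comt-5 and comt-3 lie beside each other on chromosome V, in that order, with 1 protein-coding gene, Y40B10A.11, between comt-4 and comt-5. comt-4 and comt-5 are on the same strand and comt-3 is on the opposite one. comt-4 did not share the profile of these neighbours: it was lowest in hs::control replicate 1, the library in which comt-5 and comt-3 were highest. Both comt-5 and comt-3 were lowest in hs::lin-29 replicate 1. comt-2 lies elsewhere on chromosome V and comt-1 on chromosome X. Files of build ce10 and an annotation of WBcel235 were combined by gene name only, so no coordinates are given.

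The genes beside the chosen pair were compared in the same test. tra-4 and kin-29 on one side of comt-1 stood at log2 fold changes of -0.20 (SE 0.09) and 0.07 (SE 0.09), and F53B3.6 and F53B3.3 on the other at -0.09 (SE 0.15) and -0.51 (SE 0.21). None of these 4 passed the threshold (edgeR adjusted p 0.228 or more), against 6.60% of all tested genes, a share at which 4 genes can hold none. At an unadjusted p under 0.05 tra-4 and F53B3.3 were lower, with no share of all tested genes computed at that setting. Their strains did not overlap, as in 23.2% of all tested genes. Beside comt-2, F36D3.1 passed, as did 6.60% of all tested genes. It measured 15.5, 14.4 and 15.5 CPM in the hs::control libraries against 19.7, 21 and 20.9 CPM in those of hs::lin-29. The level was 1.36-fold higher in hs::lin-29 (log2 fold change 0.44, SE 0.11, edgeR adjusted p 0.04675). The call of F36D3.1 was lost when any 1 of the 6 libraries was left out, and over the alternatives its edgeR, DESeq2 or limma adjusted p ran from 0.03145 to 0.1758. srh-136 and Y32B12A.5, the other neighbours of comt-2 with a row, reached no more than 2 counts per library and were not tested. nhr-86, beside comt-3, averaged 30.2 ± 2.00 CPM in hs::control and 28.2 ± 3.50 CPM in hs::lin-29 (log2 fold change -0.10, SE 0.12). Near comt-4, Y40B10A.5 had 1, 19 and 7 counts in hs::control and 13, 6 and 3 in hs::lin-29, another order than that of comt-4, and srab-23 had at most 2 counts.

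Dopamine and the related amines are made from tyrosine and tryptophan, packed into vesicles, taken back up and oxidised by a set of genes that surrounds the methyltransferases in metabolism. The list called the amine genes here has 25 members: such genes, receptor genes, and genes of the biopterin cofactor, among them agmo-1. Of these, 18 were tested, 1 rose and 1 fell (11.1% against 6.60% of all tested genes). The median log2 fold change was 0.09, against 0.0087 over all tested genes. bas-1, the aromatic amino acid decarboxylase that makes dopamine and serotonin, measured 41.5, 37.1 and 35.3 CPM in the hs::control libraries against 46.3, 55.5 and 50.7 CPM in those of hs::lin-29. It rose 1.34-fold (log2 fold change 0.42, SE 0.11, edgeR adjusted p 0.04865), and the strains did not overlap. Leaving out replicate 2 or 3 of either strain ended this call, and over the alternatives the adjusted p ran from 0.01064 to 0.1884. agmo-1, an ether lipid monooxygenase that uses the same biopterin cofactor as the tyrosine hydroxylase, measured 95.7, 75.5 and 89 CPM in the hs::control libraries against 62.9, 62.2 and 46.9 CPM in those of hs::lin-29. It fell 1.51-fold (log2 fold change -0.60, SE 0.14, edgeR adjusted p 0.03651). Leaving out replicate 1 or 3 of hs::control, or replicate 2 or 3 of hs::lin-29, ended this call, and the adjusted p ran from 0.0003957 to 0.1192 over the alternatives.

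The other amine genes did not pass. The tyrosine hydroxylase gene cat-2 averaged 9.23 ± 1.84 CPM in hs::control and 11.3 ± 2.28 CPM in hs::lin-29 (log2 fold change 0.30, SE 0.20), and the dopamine transporter gene dat-1 averaged 12.95 ± 1.20 and 14.3 ± 1.11 CPM (log2 fold change 0.14, SE 0.13). The amine oxidase genes amx-1 and amx-2 had log2 fold changes of 0.21 (SE 0.12) and -0.11 (SE 0.14). The 5 tested genes of the dopamine receptor family, dop-2 to dop-6, ran from a log2 fold change of -0.36 to 0.05. tbh-1, ptps-1, amx-3 and dop-1 are listed at 0 in every library. Of 6 markers of dopaminergic neurons all 6 were detected and bas-1 alone passed. Their summed level was 89.1 to 97.2 CPM in hs::control and 112 CPM or more in hs::lin-29, and the strains did not overlap. Among single tested genes, 11.3% had every hs::lin-29 library the higher. All 6 dopaminergic markers had a log2 fold change above 0, but so had all 5 tested markers of neurons in general. Without bas-1 the other 5 dopaminergic markers summed to 47.7, 60.1 and 61.8 CPM in hs::control and 67.9, 63.2 and 61.3 CPM in hs::lin-29. The strains then overlapped. The part of these markers in the comt values was not tested.

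The methyl donor of all these reactions, S-adenosylmethionine, is made from methionine and recycled through homocysteine. Of 22 genes of this cycle and its folate branch 10 were tested, cth-2 rose and none fell, a share of 10% called against 6.60% of all tested genes. cth-2, a cystathionine gamma-lyase gene of the pathway that leads from homocysteine to cysteine, measured 183, 136 and 140 CPM in the hs::control libraries against 282, 308 and 307 CPM in those of hs::lin-29. The strains did not overlap, and the level was 1.96-fold higher in hs::lin-29 (log2 fold change 0.97, SE 0.13, edgeR adjusted p 0.002882). The call held under all 16 alternatives run, with an adjusted p of at most 0.02406. At an unadjusted p under 0.05 gcst-1 was the 1 lower gene, with no share of all tested genes computed at that setting. Neither DESeq2 nor limma-voom called a fall. The S-adenosylmethionine synthetase gene sams-1 measured 451, 300 and 363 CPM in the hs::control libraries against 171, 354 and 303 CPM in those of hs::lin-29, with overlap. Its log2 fold change was -0.43 with an SE of 0.25. The hydrolase gene ahcy-1, which removes the product that all methyltransferases share, had a log2 fold change of 0.07 (SE 0.24), and metr-1 one of -0.26 (SE 0.18). The median over the 10 genes was -0.06. 7 of the 22, sams-4, sams-5, mtrr-1, mel-32, cbs-1, cth-1 and pmt-1, are listed at 0 in every library and were not measured.

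Of 7 other methyltransferase genes tested, out of a list of 11, none passed in edgeR, DESeq2 or limma-voom. In edgeR 6.60% of all tested genes passed, a share at which a list of 7 can hold none. At an unadjusted p under 0.05, 1 gene, coq-5, was higher, with no share of all tested genes computed at that setting. coq-5, a ubiquinone synthesis gene, averaged 59.2 ± 3.16 CPM in hs::control and 71.1 ± 3.67 CPM in hs::lin-29 (log2 fold change 0.26, SE 0.09, edgeR adjusted p 0.1369). anmt-2 had a log2 fold change of 0.26 with an SE of 0.12. The median over the 7 was 0.21. pmt-2 belongs to both this list and the methyl donor list.

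Of 13 tested genes of tyrosine breakdown, tyrosinases and cuticle cross-linking oxidases, 1 rose and none fell (7.69% against 6.60% of all tested genes). gst-42, whose human counterpart isomerises maleylacetoacetate in tyrosine breakdown, measured 44.8, 39.6 and 38.8 CPM in the hs::control libraries against 59.5, 50.7 and 53.4 CPM in those of hs::lin-29. It rose 1.33-fold (log2 fold change 0.41, SE 0.10, edgeR adjusted p 0.04693). It lost the call whenever replicate 2 or 3 of hs::control or any 1 of the hs::lin-29 libraries was left out, with an adjusted p of 0.01206 to 0.1821 over the alternatives. The count of falls was 0 in edgeR, 3 at an unadjusted p under 0.05, 3 in DESeq2 and 1 in limma-voom. Over all tested genes the falls numbered 540 in edgeR, 725 in DESeq2 and 516 in limma-voom. The share of all tested genes at an unadjusted p under 0.05 was not computed, so that count is only a description. The tyrosinase family genes tyr-2 and tyr-6, named after their values were seen, lay just outside the threshold. tyr-2 had a log2 fold change of -0.82 (SE 0.21, edgeR adjusted p 0.05172) and tyr-6 one of -0.59 (SE 0.15, edgeR adjusted p 0.05624). The median over the 13 genes was -0.15.

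**Figure D5:**
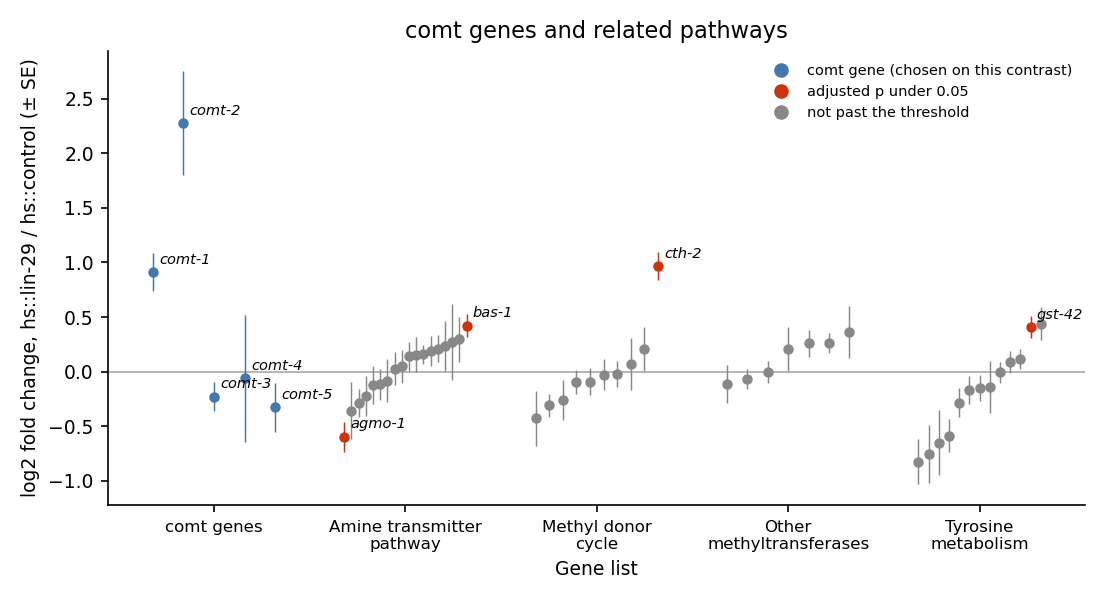
log2 fold change of hs::lin-29 over hs::control with its SE for the comt genes (blue, chosen on this contrast and shown as a description) and for the tested genes of 4 related lists (red past an adjusted p of 0.05, grey not past it). The values of comt-2 (2.28) and comt-1 (0.91) lie above most listed genes, and cth-2 (0.97) is the highest of the listed genes. agmo-1 is the only lower gene past the edgeR threshold, and some genes not past it lie lower, such as tyr-2 (-0.82).

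Of the tissue markers, the intestine regulator elt-2 rose, from 12.7 ± 2.36 to 34.2 ± 6.97 CPM (log2 fold change 1.42, SE 0.18, edgeR adjusted p 0.00256). It was the 1 of 5 tested intestine genes that passed (20% against 6.60% of all tested genes). The summed intestine level overlapped between strains, at 1603 to 2021 CPM in hs::control and 1563 to 1911 CPM in hs::lin-29. Of 22 tested markers of skin, muscle, pharynx, neurons and germline none passed in edgeR, against 6.60% of all tested genes. At that share 22 genes can hold none, so the count does not show an unchanged tissue make-up. Of these markers 1 had an unadjusted p under 0.05, a setting without a computed share of all tested genes. DESeq2 called 1 and limma-voom 0. Over all tested genes DESeq2 called 420 higher and 725 lower, and limma-voom 295 higher and 516 lower. The part of any tissue in the comt values was not tested.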

How the data were processed

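The authors deposited 1 table of raw read counts per gene for each of 6 whole-larva libraries. Per the submitters' processing notes the tools were HTSeq 0.6.1p1, STAR 2.5.2b and DESeq2 1.12.3 among others, with build ce10 and no roles stated. Between 39.7% and 41.8% of a library's counts lay in rows naming no gene, which were left out. Such counting drops reads shared between near-identical genes, which can lower family members.

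edgeR 4.0.16 did the filtering (filterByExpr, minimum count 10, total 15), the TMM scaling and the main test, a robust, two-sided quasi-likelihood F test of strain over all 13045 genes, adjusted after Benjamini and Hochberg at 0.05. SEs are the absolute log2 fold change over the square root of F. Within-strain SDs and likeness used log2 CPM with a prior count of 2, computed from the deposited counts. Exon lengths, overlaps and neighbours come from the WBcel235 annotation, matched by name. No 2 replicates were merged, since their counts differed beyond sampling noise (lowest chi-square per degree of freedom 11.5).

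The members and gene lists were chosen with earlier results of these data known. Named genes follow a rule: every comt gene and lin-29; in each list up to 3 higher and 3 lower past the threshold with a mean of at least 1 CPM, or else the 2 with the smallest p; the 2 nearest genes on each side of a comt gene; and the 3 most alike. Neighbours are protein-coding ones, a limit set after the annotation was read. Genes given outside this rule (cat-2, dat-1, amx-1, amx-2, sams-1, ahcy-1, metr-1, gcst-1, elt-2 and the tyrosinase genes) were chosen for their role or after their values were seen. Planned promoter and protein comparisons were not run, since sequences were not used here. On simulated counts for these 13045 genes, comparing hs::lin-29 with hs::control, edgeR found 48% of the 1.5-fold changes, 68% of the 2-fold, 92% of the 4-fold and 98% of the 8-fold ones, and 10 of its 163 calls were false. The counts of each gene were drawn independently with the spread that edgeR had estimated. They held no deviation shared across a library, such as that of hs::control replicate 1, so these figures may not hold for the real libraries. Alternatives were 3 other scalings, 2 other filters, DESeq2 1.42.0, limma-voom (limma 3.58.1), no robust estimation, a replicate block, each library left out and, added later, both libraries numbered 1 left out. The software was Python 3.11.15 with pandas 2.3.3, and R 4.3.3.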

Additional observations from a re-analysis of the deposited data

How the results depend on the processing

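The log2 fold changes of comt-1, comt-3, comt-4 and comt-5 moved by less than the within-strain SD under every alternative that gave a value, and so did that of comt-2 except without both libraries numbered 1, where it was 2.65. As each library was left out they ran from 0.815 to 1.05 for comt-1, 2.00 to 2.46 for comt-2, -0.338 to -0.12 for comt-3, -0.481 to 0.476 for comt-4 and -0.538 to -0.214 for comt-5. With a mean of at least 5 CPM required, comt-2 and comt-5 were not tested. Without division by length comt-1 ranked 3 and comt-5 ranked 4 by level in both strains, in place of 4 and 3.

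Leaving out each library gave 135 to 327 genes higher and 324 to 567 lower over all genes, 0 to 1 higher and 0 to 1 lower among the amine genes, and 0 to 1 higher and 0 to 1 lower among the tyrosine genes. Without both libraries numbered 1 the methyl donor genes held 3 higher, the other methyltransferases 1 higher and the tyrosine genes 1 lower. In limma-voom the count of higher genes was 0 among the amine genes and 0 among the tyrosine genes, which also held 0 higher with library totals only and 2 without a filter. Tyrosine genes that fell numbered 3 in DESeq2 and 1 with upper-quartile scaling, library totals only, no filter, a mean of at least 5 CPM, limma-voom and no robust estimation, in place of 0. The causes were not tested.

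Samples that share a replicate number did not consistently deviate together (correlations of 0.0112, -0.361 and 0.238 for numbers 1 to 3). hs::control replicate 1 correlated best with hs::lin-29 replicate 2 (0.371). No pairing by number was thus seen over all genes. With 3 libraries per strain these correlations cannot show whether libraries of the same number came from a shared trial. With the replicate block 206 genes were higher and 350 lower, the amine genes held 0 higher and 0 lower and the tyrosine genes 0 higher, and comt-2 was not past the threshold.

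Depth limits comt-2 most, with 11 counts over 3 hs::control libraries. A count of 3 to 4 per library leaves its level in hs::control loosely fixed.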
